A study of Mus musculus with 4 samples.

Results

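Wnt proteins are secreted, lipid-bearing growth factors. Brown fat transcripts were examined for 58 genes of their signalling pathway. They comprise every gene of the Wnt, Frizzled (Fzd), secreted Frizzled-related (Sfrp) and Dickkopf (Dkk) families whose symbol carries a number, plus the co-receptors Lrp5 and Lrp6, the R-spondin receptors Lgr4, Lgr5 and Lgr6, and named enzymes, transducers and targets of the pathway. They are 58 of the 22180 genes measured. Tcf7, which the list also asked for, had no probe set listed with it as the only gene symbol. By role they comprise 19 Wnt ligands, 2 genes of ligand secretion, 10 Frizzled receptors, 5 co-receptors and 2 genes of receptor turnover. The others are 10 secreted inhibitors, 5 transducers and transcription factors, 4 feedback genes and targets, and Fzd10os, a transcript named as antisense to Fzd10. The R-spondin receptors are counted here with the co-receptors.

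The samples were brown adipose tissue of male C57BL/6 mice aged 4 months on chow, from Tsku knockout mice (KO, 2 samples) and wild-type mice (WT, 2 samples). Tsku encodes tsukushi, a secreted small leucine-rich proteoglycan. The labels do not say which allele was used or in which tissues the gene was deleted. Tsku had 0 probe sets listed with it as the only gene symbol. Probe sets with several symbols were not used, so the genotypes rest here on the labels. Each sample was hybridised to 1 whole-transcript array, and the values are log2 expression per probe set. The labels call the samples of a genotype biological replicates and do not say whether each came from its own mouse. The p-values therefore reflect the scatter of these 4 samples alone, part of which may be technical.

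A Wnt protein is acylated by Porcn, carried to the cell surface by Wls and bound by a Frizzled receptor together with Lrp5 or Lrp6. The bound receptors disable a complex built on Axin that otherwise marks beta-catenin (Ctnnb1) for destruction, and beta-catenin then activates genes with the TCF/LEF factors. Other Frizzled signals act without beta-catenin. In preadipocytes the beta-catenin branch opposes the formation of fat cells, and Wnt10b is the ligand best known for it. In the eye of chick and mouse, tsukushi is known to bind Frizzled-4 and to compete there with Wnt2b. The comparison of KO with WT therefore asks whether loss of this extracellular Wnt inhibitor was accompanied by altered transcript levels of pathway components or target genes.

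Most components that receive or transmit a Wnt signal were measurable in this tissue, and the ligands were largely not. A probe set counts here as above background on an array when it exceeds 95% of the 1405 olfactory and vomeronasal receptor probe sets on that array, a level between 0.63 and 0.81. On all 4 arrays, 23 of the 58 genes (39.7%) lay above it, against 44.8% of all genes. These were 5 of 5 co-receptors, 2 of 2 genes of ligand secretion, 2 of 2 genes of receptor turnover, 4 of 5 transducers and transcription factors, 5 of 10 Frizzled receptors, 2 of 4 feedback genes and targets and 3 of 10 secreted inhibitors. None of the 19 Wnt ligands (0) did so, and 4 did with the limit lowered to 75%. A further 12 of the 58 genes lay above background on some arrays and 23 on none. A probe set at background gives only an upper bound on its transcript.

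No gene of the pathway passed the test between genotypes. With limma and Benjamini-Hochberg adjustment over 22180 genes, 0 of the 58 had an adjusted p under 0.05 and the smallest was 0.872; over all genes the share called was 0.0%. Before adjustment, 2 of 58 (3.45%) had p under 0.05, against 5.56% of all genes. These were Wnt8a, higher in KO like 2.89% of all genes, and Wnt9b, lower in KO like 2.67%. The share was therefore near the background. At an unadjusted p under 0.01 there were 0 of 58, against 1.02% of all genes, 0.505% higher and 0.518% lower in KO. The count was 4 without WT replicate 1 (6.9%, against 7.02% of all genes), 4 without WT replicate 2 (6.9%, against 5.09%), 2 without KO replicate 1 (3.45%, against 4.3%) and 3 without KO replicate 2 (5.17%, against 7.31%). The median log2 difference, KO minus WT, was -0.07 over the 58 genes and 0.02 over all genes, and it turned to 0.02 over the 58 without WT replicate 1. By sign, 23 of the differences were positive and 35 negative, against 11670 and 10510 over all 22180 genes. Among the 23 genes above background on all 4 arrays, 11 were positive and 12 negative. Of the other 35 genes, 12 were positive and 23 negative. The KO and WT arrays did not overlap for 17 of the 58 genes (29.3%), against 35.2% of all genes. Of these 17, 9 had KO above WT, against 19.4% of all genes in that direction, and 8 had KO below WT, against 15.8%.

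**Figure D1:**
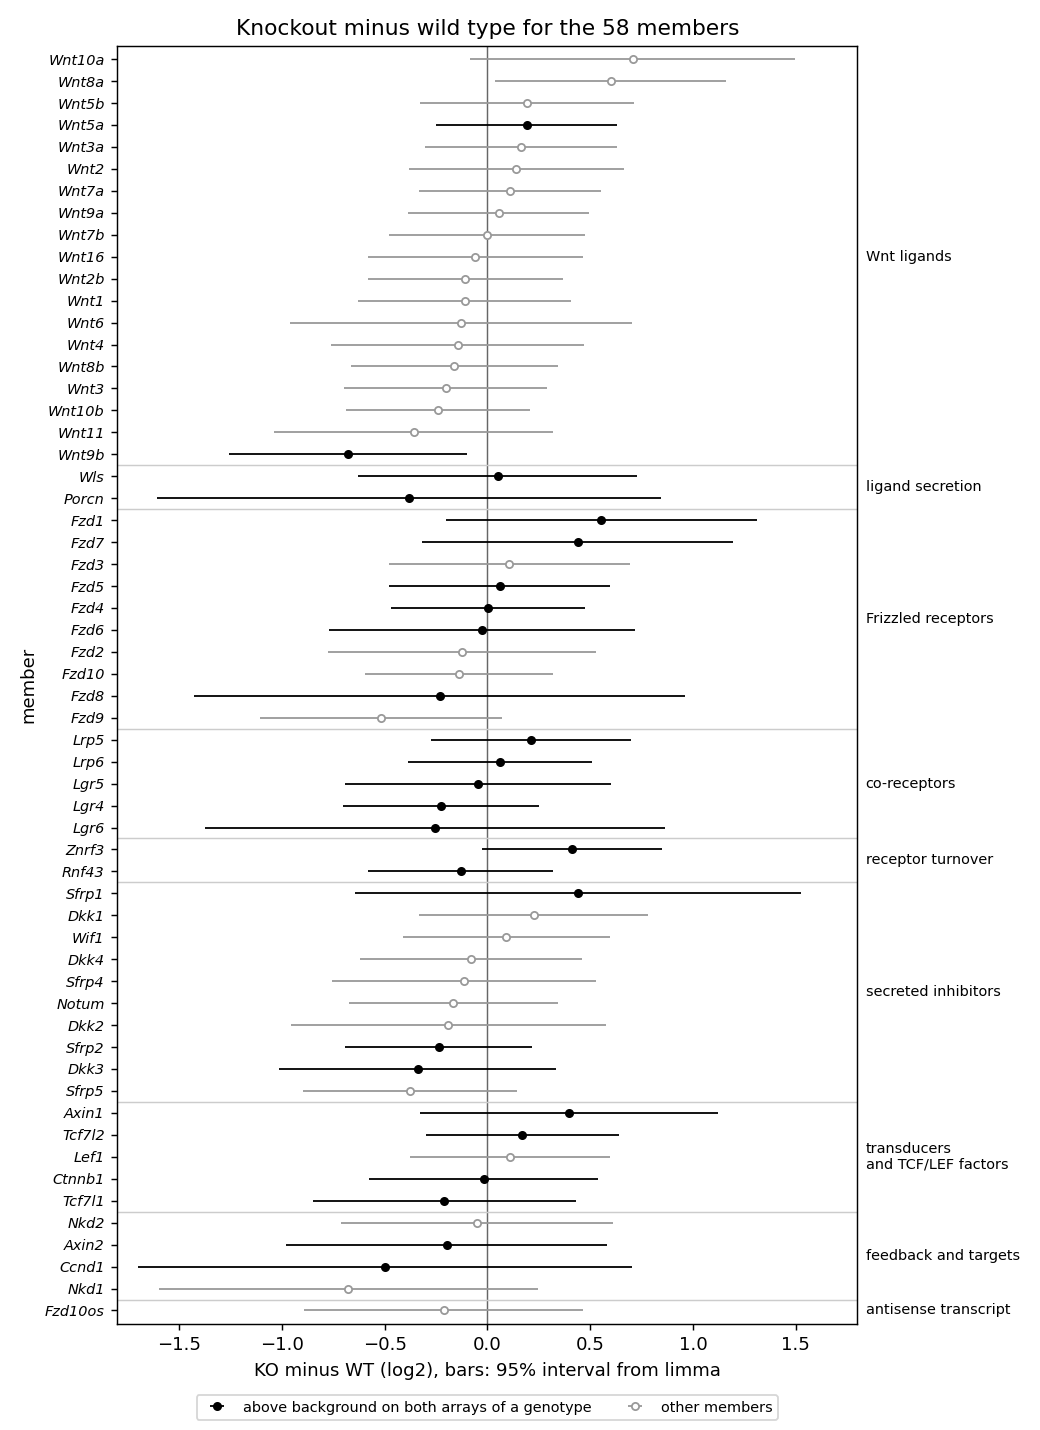
Log2 difference, KO minus WT (x axis), for each of the 58 genes (y axis, grouped by role); points are limma estimates from 2 KO and 2 WT samples and bars are 95% intervals. Filled points are genes above background on both arrays of at least 1 genotype; only the intervals of Wnt8a and Wnt9b leave out 0, and neither gene passed the adjusted test.

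Among the 23 genes above background on all 4 arrays, the 95% interval of the log2 difference lay wholly between -1 and 1 for 15 (65.2%), against 77.5% of all genes at that level, so a doubling or halving of the signal lies outside the interval for those 15. The median half-width was 0.65 for these 23 genes and 0.53 for all genes above background on all 4 arrays. Of the other 35 genes, 28 had such an interval, but at background it bounds the signal of the probe set and not the transcript. The difference was larger than both gaps between arrays of 1 genotype in 11 of the 58 genes (19.0%), against 22.6% of all genes.

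Among the Wnt ligands, Wnt9b had the smallest p. It read 0.67 and 0.21 in KO and 1.25 and 0.98 in WT. Both KO values lay below both WT values, and both were at background. The mean WT signal was at least 1.29-fold higher than that of KO, a bound that leaves out the scatter between arrays. With KO at background, the log2 difference of -0.68 (SE 0.24, 95% interval -1.26 to -0.10, limma adjusted p = 0.872) is not a measured fold. Wnt9b is known for its part in forming the kidney tubules. Its genomic neighbour Wnt3, which is needed for the body axis of the embryo, was at background on all arrays with a log2 difference of -0.20.

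Wnt8a, a ligand of the early embryo, read 0.86 and 0.37 in KO and -0.02 and 0.05 in WT. KO replicate 1 alone was above background, so no fold is given; the log2 difference was 0.60 (SE 0.23, 95% interval 0.04 to 1.16, limma adjusted p = 0.872). Wnt10a, a close relative of Wnt10b, read 0.68 and 1.34 in KO and -0.03 and 0.63 in WT, with KO replicate 2 the only array above background and a limma adjusted p of 0.872. Its neighbour Wnt6 read 0.36 and 0.19 in KO and -0.09 and 0.89 in WT, and the genotypes overlapped.

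Wnt5a, which signals mainly without beta-catenin, was the other ligand above background on both arrays of a genotype. It read 1.02 and 0.95 in KO and 0.81 and 0.77 in WT. Both KO values were the higher ones by a small margin (log2 difference 0.19, 95% interval -0.25 to 0.63, limma adjusted p = 0.916). Wnt10b read 0.05 and 0.04 in KO and 0.35 and 0.21 in WT, at background throughout. Wnt2b, the ligand with which tsukushi competes in the eye, read 0.41 and 0.17 in KO and 0.35 and 0.45 in WT, also at background throughout. For these last genes the arrays carried no signal from which a change could be read.

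Both genes of ligand secretion were above background. Porcn, the acyltransferase of Wnt proteins, read 2.54 and 3.74 in KO and 2.98 and 4.06 in WT. Replicate 1 was the low array in both genotypes, and the gaps of 1.20 within KO and 1.08 within WT exceeded the log2 difference of -0.38 (95% interval -1.61 to 0.85). Wls, the carrier of Wnt proteins to the surface, had a log2 difference of 0.05 (95% interval -0.63 to 0.73).

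The Frizzled receptor tied to tsukushi did not differ detectably. Fzd4, a receptor best known from the vessels of the retina, read 7.87 and 8.10 in KO and 8.04 and 7.93 in WT. The KO values enclosed the WT values, and the log2 difference was 0.00 (SE 0.19, 95% interval -0.47 to 0.47, limma adjusted p = 0.999). The summed linear level of 12 endothelial markers, all 12 above background on all 4 arrays, was 576.3 and 769.0 in KO and 683.3 and 584.6 in WT. The arrays were in the same order as for Fzd4. The brightest marker, Cdh5, weighs most in this sum and had that order too, at 8.05 and 8.54 in KO and 8.40 and 8.13 in WT. Not every marker had it: Kdr read 6.75 and 6.92 in KO and 6.49 and 6.26 in WT. The part of endothelial content in the Fzd4 values was not tested, and in whole tissue fewer cells of a type and less RNA per cell cannot be told apart.

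Among the other Frizzled receptors, Fzd1 and Fzd7 had the largest positive differences. Fzd1 read 3.17 and 4.04 in KO and 3.02 and 3.09 in WT. KO replicate 2 stood apart from the other 3 arrays, and the log2 difference of 0.55 (SE 0.31, 95% interval -0.20 to 1.31, limma adjusted p = 0.886) was 0.12 without that array and 0.99 without KO replicate 1. Fzd7, a receptor of beta-catenin signalling in stem cells, read 4.25 and 4.20 in KO and 4.22 and 3.35 in WT. Here WT replicate 2 was the low array and the other 3 were alike, with a log2 difference of 0.44 (95% interval -0.32 to 1.19) that was 0.0043 without that array and 0.87 without WT replicate 1. Fzd9 had the smallest p of the 10 receptors and lay the other way, at 0.22 and 0.26 in KO and 0.48 and 1.03 in WT. Both KO values were the lower ones, but WT replicate 2 was its only array above background (log2 difference -0.52, 95% interval -1.10 to 0.07, limma adjusted p = 0.872). Fzd8 read 0.65 and 2.15 in KO and 1.87 and 1.40 in WT. Its gap of 1.50 within KO was the widest among the 26 genes above background on both arrays of at least 1 genotype, and KO replicate 1 lay at background. Fzd5 and Fzd6 had log2 differences of 0.06 and -0.03 with overlapping arrays, and Fzd2, Fzd3 and Fzd10 were at background on every array.

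**Figure D2:**
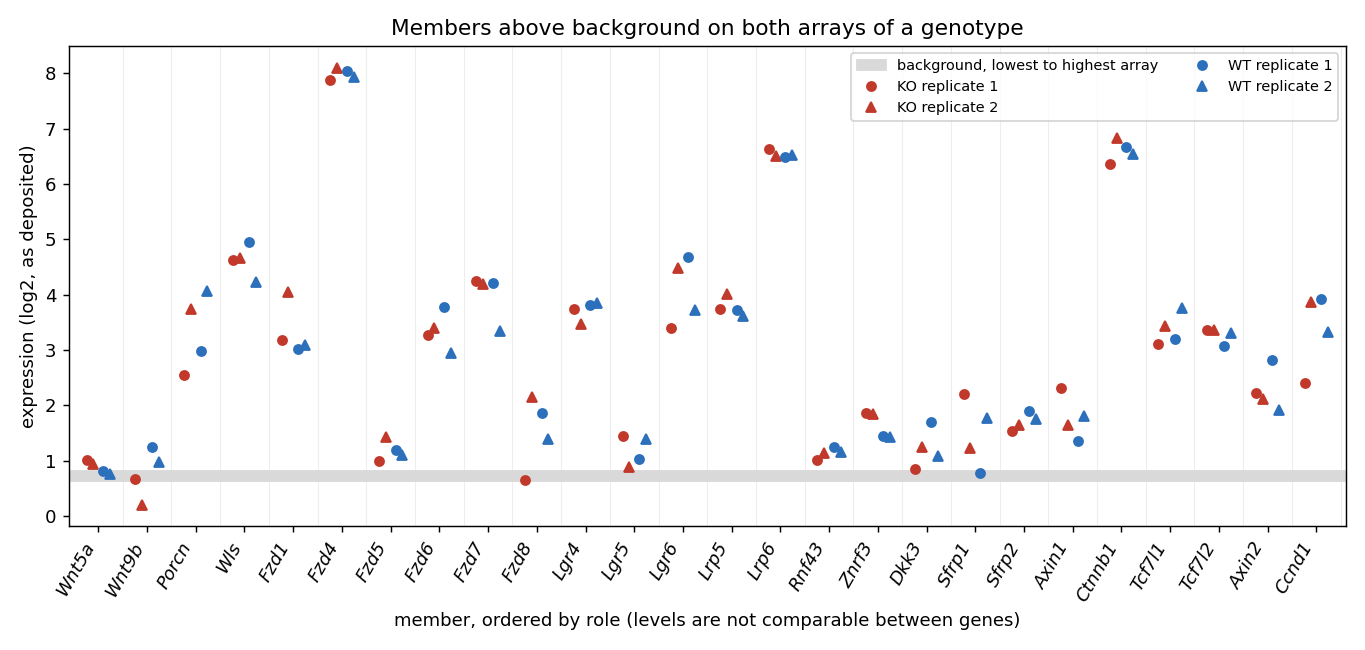
Deposited log2 value (y axis) on each of the 4 arrays for the 26 genes above background on both arrays of at least 1 genotype (x axis, ordered by role); KO in red on the left of each gene, WT in blue on the right, and the grey band spans the background limits of the arrays. Fzd4, Lrp6 and Ctnnb1 keep their 4 arrays within 0.47 of each other, while Fzd8, Ccnd1 and Porcn spread by more than 1 within KO.

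The 5 genes counted as co-receptors, Lrp5, Lrp6 and the R-spondin receptors, had log2 differences between -0.26 and 0.21. Lrp6 read 6.63 and 6.50 in KO and 6.48 and 6.52 in WT, and Lrp5 read 3.74 and 4.02 in KO and 3.73 and 3.61 in WT. The Lrp6 arrays overlapped, with a log2 difference of 0.06 (95% interval -0.39 to 0.51), and the KO arrays of Lrp5 lay above those of WT by 0.21 (-0.28 to 0.70). Lgr4, which binds R-spondins to protect Frizzled receptors, read 3.73 and 3.47 in KO and 3.82 and 3.85 in WT. Both KO values were lower, with a log2 difference of -0.23 (95% interval -0.70 to 0.25). Lgr6 and Lgr5 had log2 differences of -0.26 and -0.05 with overlapping arrays.

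Of the enzymes that remove Frizzled receptors from the surface, Znrf3 had the closest replicates of the 26 genes above background on both arrays of at least 1 genotype. Znrf3, a ubiquitin ligase that is itself induced by beta-catenin, read 1.86 and 1.85 in KO and 1.46 and 1.43 in WT. The wider gap, within WT, was 0.028 and the genotypes were apart by 0.41 (SE 0.18, 95% interval -0.03 to 0.85, limma adjusted p = 0.872), a 1.33-fold higher level in KO that did not pass. The difference lay between 0.40 and 0.42 without each array in turn, a range that follows from the small gaps and adds nothing to them. Its relative Rnf43 lay the other way, at 1.01 and 1.13 in KO and 1.25 and 1.16 in WT, with a log2 difference of -0.13 (95% interval -0.58 to 0.32).

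**Figure D3:**
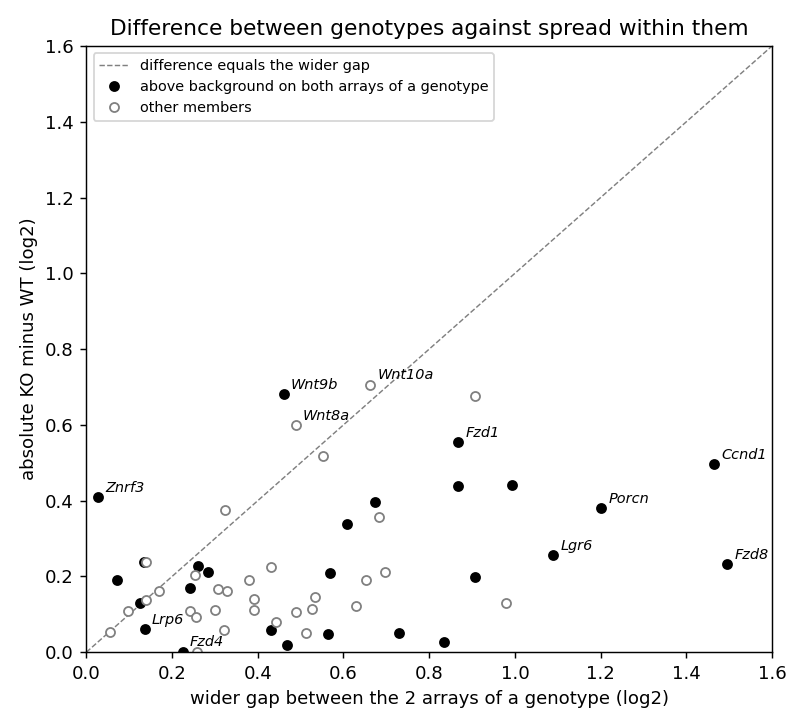
Absolute log2 difference, KO minus WT (y axis), against the wider of the gaps between the arrays of 1 genotype (x axis, log2) for the 58 genes; the dashed line marks equality. The 11 genes above the line include Znrf3, Wnt9b, Wnt8a and Wnt10a, while Ccnd1, Porcn and Fzd8 lie far to the right of it.

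Of the secreted inhibitors, Sfrp2 and Dkk3 were the ones with the smallest p among those above background on all arrays. Sfrp2, which binds Wnt proteins outside the cell, read 1.54 and 1.64 in KO and 1.90 and 1.76 in WT. Both KO values were lower (log2 difference -0.24, 95% interval -0.69 to 0.21, limma adjusted p = 0.900). Dkk3, a member of the Dickkopf family that does not act through Lrp6 as Dkk1 does, read 0.86 and 1.25 in KO and 1.70 and 1.09 in WT, with overlap. Sfrp1 differed more within a genotype than between them, with 2.21 and 1.22 in KO and 0.78 and 1.77 in WT. Sfrp5, an inhibitor secreted by adipocytes, read 0.45 and 0.12 in KO and 0.78 and 0.54 in WT. Its KO values were the lower ones, but WT replicate 1 was its only array above background (log2 difference -0.38, limma adjusted p = 0.888). Notum, an enzyme that strips the lipid from Wnt proteins, read 0.08 and 0.27 in KO and 0.19 and 0.49 in WT, at background throughout, as were Dkk1, Dkk4, Sfrp4 and Wif1.

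Of the 5 transducers and transcription factors, 1 had arrays that did not overlap between genotypes, Tcf7l2. Such a lack of overlap was seen in 35.2% of all genes, so it does not set Tcf7l2 apart. Ctnnb1 read 6.35 and 6.82 in KO and 6.66 and 6.55 in WT. The KO values enclosed the WT values (log2 difference -0.02, 95% interval -0.57 to 0.54). Tcf7l2, the TCF factor with the best known part in adipocytes, read 3.37 and 3.36 in KO and 3.07 and 3.31 in WT, a log2 difference of 0.17 (95% interval -0.30 to 0.64). Axin1, the scaffold of the destruction complex, read 2.32 and 1.64 in KO and 1.36 and 1.81 in WT, with overlap. Its log2 difference of 0.40 (95% interval -0.33 to 1.12) was 0.061 without KO replicate 1 and 0.73 without KO replicate 2. Tcf7l1, mostly a repressor, had one of -0.21 with overlapping arrays. Lef1 read 0.34 and 0.04 in KO and 0.06 and 0.08 in WT, at background on every array.

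All 4 feedback genes and targets had negative differences, as did 10510 of all 22180 genes, with a median of -0.35. The arrays of the genotypes overlapped in each of the 4. Axin2, the most widely used readout of beta-catenin activity, read 2.22 and 2.12 in KO and 2.82 and 1.91 in WT. Both KO values lay inside the WT range, with a log2 difference of -0.20 (SE 0.32, 95% interval -0.98 to 0.58, limma adjusted p = 0.942). A second Axin2 probe set read 1.23 and 0.69 in KO and 0.31 and 0.99 in WT, above background on 2 arrays, so the 2 probe sets disagree in sign (0.31 for this one). Ccnd1, the cyclin D1 gene and a reported target, read 2.40 and 3.86 in KO and 3.92 and 3.33 in WT. KO replicate 1 was the low array, and the log2 difference of -0.50 (95% interval -1.70 to 0.71) became 0.24 without it and -1.23 without KO replicate 2. On the same array the summed linear level of 12 macrophage markers was lowest, with all 12 above background on all arrays. It was 149.7 and 275.4 in KO and 265.4 and 277.8 in WT. The sums of endothelial, pericyte and smooth muscle, and progenitor and fibroblast markers were lowest on that array too, at 576.3, 653.2 and 774.4. Those of brown adipocyte, skeletal muscle and liver markers were not lowest there. The part of these cell types in the Ccnd1 values was not tested. Nkd1, a feedback inhibitor, was above background on WT replicate 2 alone, at -0.22 and 0.48 in KO and 0.35 and 1.26 in WT (log2 difference -0.68, limma adjusted p = 0.886). Nkd2 was at background on every array, with a log2 difference of -0.05.

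The promoters of the genes were searched for the TCF/LEF core CTTTGAT on both strands, in RefSeq windows (GRCm38.p6) from 250 bases before to 50 after the gene start. Windows were at hand for 37 of the 58 genes, Axin2 included. The core was present in 2 of their 46 windows (4.35%) and in 3.73% of all 32851 windows. No other form of the motif was searched. The letters around both matches are shown because they are the only ones in the 46 windows of these genes. Capitals mark the core or, for Wnt11, its reverse complement, and both are written along the strand of the gene.
Wnt5b (chr6:119449431-119449477, minus strand): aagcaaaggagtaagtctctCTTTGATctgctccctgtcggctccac
Wnt11 (chr7:98835041-98835087, plus strand): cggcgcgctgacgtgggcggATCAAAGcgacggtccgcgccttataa
The match lies upstream of the start in each, beginning 71 bases before it in Wnt5b and 51 in Wnt11. A match is not a binding site. Neither gene was above background on both arrays of a genotype: Wnt5b read 0.56 and 0.45 in KO and 0.12 and 0.50 in WT, and Wnt11, a ligand of the branch without beta-catenin, read 0.40 and 0.66 in KO and 0.54 and 1.23 in WT.

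The rest of the pathway and 10 adipogenic genes opposed by beta-catenin in preadipocytes were followed in 6 further lists with 122 measured genes. Of these, 0 passed at an adjusted p under 0.05 (limma, smallest adjusted p 0.872), and 5 had an unadjusted p under 0.05 (4.10%), 4 higher and 1 lower in KO, against 5.56% of all genes. The count was 7 without WT replicate 1 (5.74%, against 7.02% of all genes), 9 without WT replicate 2 (7.38%, against 5.09%), 7 without KO replicate 1 (5.74%, against 4.3%) and 14 without KO replicate 2 (11.5%, against 7.31%). Their median log2 difference was 0.04.

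Reported targets of beta-catenin outside the 58 held the smallest p of the pathway. Ppard, a nuclear receptor that drives fat oxidation, read 3.92 and 3.46 in KO and 2.59 and 2.23 in WT. Both KO values lay well above both WT values, a log2 difference of 1.27 (SE 0.25, 95% interval 0.67 to 1.88, limma adjusted p = 0.872) or 2.42-fold. It ranged from 1.04 to 1.50 without each array in turn, and the gene passed in no alternative. The other 26 of 27 measured genes of that list had an unadjusted p of 0.05 or more in limma. The nearest to that limit were the secreted factor gene Ccn5 and the transcription factor gene Snai2. Their log2 differences were 0.56 and 0.44, and in each both KO values lay above both WT values. The median log2 difference of the list was 0.10. In the same samples the 13 brown adipocyte markers, 12 of them above background on all arrays, had a median difference of 0.35 and summed linear levels of 4165 and 4231 in KO and 3600 and 3503 in WT; their part in the Ppard values was not tested.

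In the branch without beta-catenin, Prickle1, a planar polarity gene, read 1.46 and 1.78 in KO and 0.89 and 0.39 in WT. The genotypes did not overlap and WT replicate 2 was at background (log2 difference 0.97, SE 0.25, limma adjusted p = 0.872). Ror1, a receptor of Wnt5a, lay the other way at 0.10 and 0.94 in KO and 1.05 and 1.63 in WT (log2 difference -0.82, limma adjusted p = 0.872), and Camk2g, a kinase of calcium signalling, had a log2 difference of -0.60. Of the 21 measured genes, 1 had an unadjusted p under 0.05 and the median was -0.03.

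Among the nuclear cofactors, Cby1, which holds beta-catenin away from the TCF factors, read 3.01 and 3.06 in KO and 2.10 and 2.44 in WT. The KO pair was tight and above both WT values (log2 difference 0.77, SE 0.20, limma adjusted p = 0.872). The corepressor Tle3 and the exchange factor Tbl1x had log2 differences of -0.47 and 0.41, and the median of the 21 measured genes was 0.10. Of the 22 measured genes of Dishevelled and the destruction complex, 0 had an unadjusted p under 0.05 in limma. The nearest was Tnks2, a tankyrase that promotes the turnover of Axin, followed by Amer1 and Btrc. Their log2 differences were -0.41, 0.36 and 0.29.

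Of 21 extracellular modulators, Apcdd1, an inhibitor at the cell membrane, read 3.37 and 3.82 in KO and 4.47 and 4.11 in WT. All KO values were below all WT values (log2 difference -0.69, SE 0.24, limma adjusted p = 0.872). Trabd2b, a protease that inactivates Wnt proteins, read 0.95 and 1.02 in KO and 0.53 and 0.40 in WT, at background in WT. Its mean signal was at least 1.21-fold higher in KO, a bound that leaves out the scatter between arrays (limma adjusted p = 0.872). Adgra2, a co-receptor for Wnt7 on endothelium, read 1.28 and 1.95 in KO and 0.99 and 0.98 in WT, and its log2 difference of 0.63 was 0.29 without KO replicate 2 and 0.97 without KO replicate 1. The 10 adipogenic genes that beta-catenin signalling opposes in preadipocytes included 9 with positive differences, against 11670 of all 22180 genes. Their median was 0.10. Fabp4, Adipoq and Plin1 of this list were also among the 13 brown adipocyte markers, of which 12 had positive differences. Of the 10 adipogenic genes, 0 had an unadjusted p under 0.05 in limma, against 5.56% of all genes. The smallest unadjusted limma p were 0.143 for Retn, 0.177 for Plin1 and 0.213 for Adipoq. Their log2 differences were 0.57, 0.27 and 0.25. Retn, the resistin gene, read 8.71 and 7.74 in KO and 7.54 and 7.77 in WT. KO replicate 1 stood above the other 3 arrays, and the difference was 0.087 without it and 1.06 without KO replicate 2.

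**Figure D4:**
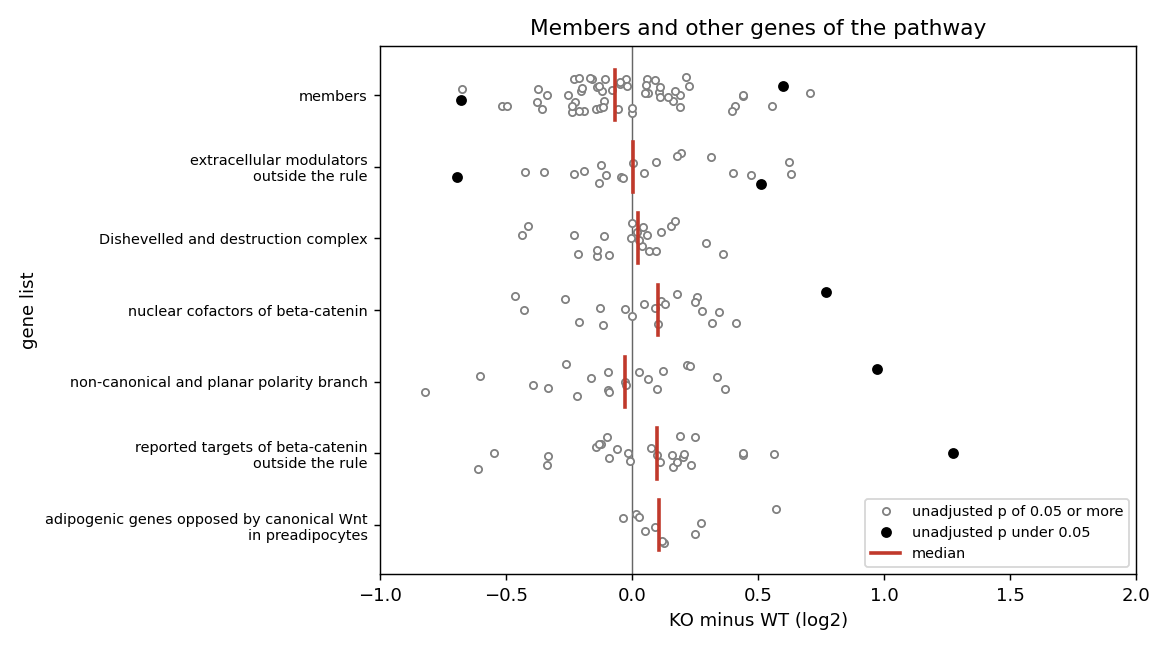
Log2 difference, KO minus WT (x axis), of each gene in the 58 (labelled members) and in the 6 further lists (rows); filled points have an unadjusted limma p under 0.05 and red bars are medians. The medians lie between -0.07 and 0.10, and the filled point farthest to the right is Ppard at 1.27.

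The tissue label was checked with the brown adipocyte markers, of which Elovl3 was above background on 1 array of each genotype and the other 12 on all arrays. Skeletal muscle markers were present as well: 13 of 18 were above background on all arrays, with summed linear levels of 218.4 and 80.8 in KO and 348.5 and 532.5 in WT and a median log2 difference of -1.74. Of the 12 liver markers, 5 were above background on all arrays. The summed levels of the 12 were 94.1 and 45.55 in KO and 36.01 and 26.33 in WT. Alb weighs most in these sums and read 5.77 and 4.41 in KO and 3.68 and 2.87 in WT. The 13 progenitor and fibroblast markers had 774.4 and 797.1 in KO and 845.7 and 858.6 in WT. The part of these cell types in the differences above was not tested.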

How the data were processed

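The deposited file, made by the authors, holds log2 values, already normalized, of 41345 probe sets on 4 arrays. The submitters' processing notes list RMA, limma and oligo with no role or version, and the genome build is not given in the sources used here. The values sit lower than RMA values usually do, for a reason that is not stated. A constant offset would cancel in differences, but whether it is constant is not known. RMA understates changes of dim genes. Names came from the platform annotation: 23521 probe sets with 1 gene symbol were used, and 1814 with several symbols and 16010 without a listed one were left out. The probe set with the highest mean was kept per gene, giving 22180 genes; 5 of the 58 genes had more than 1. Of the 58, 57 matched a protein-coding symbol of the RefSeq table, which gave the neighbours.

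KO was compared with WT in limma 3.58.1 (R 4.3.3), lmFit and eBayes, two-sided, no block, no filter, Benjamini-Hochberg over all genes, 2 residual and 3.96 prior degrees of freedom. The number of arrays limits the precision. An exact permutation of 2 against 2 samples was not used. Where both arrays of a genotype were at background, a fold is a lower bound: the mean of the brighter genotype over that of the dimmer one, in which each array takes its own value or its background limit, whichever is greater. This bound does not allow for the scatter between arrays. Summed linear levels are sums of 2 to the power of the log2 value, so the brightest genes of a list weigh most. The fit was tested on simulated data. Members and lists were chosen with earlier results of these data known. Full values are given for genes with an unadjusted p under 0.05, the 10 smallest p among the 26 genes above background on both arrays of a genotype, the 3 widest gaps among them, and Fzd4, Wnt2b, Lrp5, Lrp6, Ctnnb1, Axin2, Lef1, Tcf7l2, Wnt10b, Sfrp5, Ccnd1 and Notum; up to 3 genes above background with the smallest p are named per further list. Wnt10a, Wnt6, Fzd9, Sfrp1, Rnf43, Nkd1, Wnt5b and Wnt11 are given with values outside this rule, chosen after their values were seen.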

Additional observations from a re-analysis of the deposited data

How the results depend on the processing

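Alternatives were a replicate block, a filter on dim genes, cyclic loess, median centring, a further quantile normalization, averaging a gene's probe sets or taking the most variable one, a mean trend, a robust prior, array weights and each array left out in turn. In the alternatives that kept all 4 arrays, 0 of the 58 genes had a limma adjusted p under 0.05. The same held for the 122 genes of the further lists. The 42 genes named with values under the naming rule passed in 0 of 414 pairs of a gene and such an alternative. At an unadjusted p under 0.05 there were 2 of 58, 1 higher and 1 lower in KO. This became 4 with the replicate block (2 higher, 2 lower; 6.9%, against 5.32% of all genes), 1 of 27 with the filter on dim genes (0 higher, 1 lower; 3.7%, against 6.66%) and 2 to 4 without single arrays (1 to 2 higher, 1 to 3 lower); at an unadjusted p under 0.01 it was 0. The filter kept 27 of the 58 genes, of which 9 (33.3%) did not overlap, against 36.7% of all genes it kept, with a median of -0.026. Without single arrays the median ran from -0.074 to 0.022 and the genes without overlap from 30 (51.7%) to 47 (81.0%), against 66.9% to 69.3% of all genes, since fewer arrays can overlap. For the 122 other genes the count at an unadjusted p under 0.05 was 8 with the replicate block (6.56%, against 5.32% of all genes), 8 with a mean trend (6.56%, against 5.49%) and 7 to 14 without single arrays, against 5. The replicate numbers do not pair the samples by any label; same-numbered arrays had a correlation of -0.07 between their deviations from the group means across genes, and with the block 1 of all 22180 genes passed at an adjusted p under 0.05, none of them (0) among the 58 or the 122.

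Several differences changed sign, among them those of Ccnd1 (-0.50), Porcn (-0.38), Fzd8 (-0.23) and Axin2 (-0.20). Axin2 gave 0.056 with the mean and 0.31 with the most variable probe set, and Lrp6 gave -0.047 with the latter. Fzd4 gave -0.0099 with repeated quantile normalization, -0.0041 with median centring and -0.0081 with cyclic loess. Without single arrays the differences ran from -0.65 to 0.25 for Axin2, -1.23 to 0.24 for Ccnd1, -0.25 to 0.22 for Ctnnb1, -0.11 to 0.11 for Fzd4, -0.98 to 0.52 for Fzd8, -0.039 to 0.26 for Lef1, -0.0072 to 0.13 for Lrp6, -0.98 to 0.22 for Porcn and -0.23 to 0.014 for Wnt2b. Over the 42 named genes, 27 had a difference that reversed or moved by over 1.5 times without at least 1 array. The cause of these changes was not tested.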
